A study of Mus musculus with 32 samples.

Results

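Ddn, BC024139, Frs2 and Mllt1 are 4 protein-coding mRNAs of mouse hippocampal neurons that were chosen by their strong enrichment in neurites over soma in wild-type cultures. They were found by gene symbol, and each was matched to 1 Ensembl gene of the 55573 genes in the count table. Dissociated hippocampal neurons of neonate mice were grown for 15 days on porous membranes, so that cell bodies stayed on top and axons and dendrites crossed to the underside, and each side was scraped off as a soma or a neurite fraction. RNA-seq from 50 ng of RNA gave 16 libraries of 33789183 to 71394235 gene counts, in 8 groups of 2 by genotype, fraction and treatment. WT cultures came from C57BL/6 pups and Mettl3 KO cultures (genotype Mettl3-/-) from Mettl3Flox/Flox pups. Both genotypes, controls included, were transduced on day 7 with an adeno-associated virus that carries Cre-P2A-dTomato behind a synapsin promoter, so that Cre acts in transduced neurons and not in glia. On day 14 all cultures were silenced overnight, for 16 h, by blocking sodium channels with tetrodotoxin (1 µM) and NMDA receptors with D-AP5 (50 µM), and the KCl groups then received 55 mM KCl for 2 h, whereas the Ctrl groups did not. Genotype therefore goes with strain and litter, and these cannot be told apart. A further 16 libraries, 8 per genotype, were made by DART-seq, in which a fusion of the deaminase APOBEC1 with an m6A-binding YTH domain turns cytidines beside m6A into uridines.

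Many neuronal mRNAs are carried into dendrites and axons and translated there, and their transport is known to depend on sequences that are often in the 3′UTR. METTL3 is the enzyme that places m6A, the methyl mark on adenosines of mRNA, mostly near stop codons and in 3′UTRs. The 4 mRNAs encode unrelated proteins. Ddn encodes dendrin, a proline-rich protein of the postsynapse whose mRNA is a textbook dendritic mRNA. Frs2 encodes the adaptor that FGF and Trk receptors phosphorylate to recruit GRB2 and the phosphatase SHP2. Mllt1 encodes ENL, a nuclear reader of acetylated histones in complexes that promote transcription elongation. BC024139 is named here by its cDNA only.

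Ddn (ENSMUSG00000059213) lies on the minus strand of GRCm38 at chr15:98803777-98809490 and its main transcript has 2 exons and a 3′UTR of 1500 bases. BC024139 (ENSMUSG00000044361) lies on the minus strand at chr15:76119517-76126596, with 16 exons and a 3′UTR of 226 bases. Frs2 (ENSMUSG00000020170) lies on the minus strand at chr10:117069427-117148534, with 10 exons and a 3′UTR of 4502 bases. Mllt1 (ENSMUSG00000024212) lies on the minus strand at chr17:56892611-56935415, with 12 exons and a 3′UTR of 1851 bases. The 4 mRNAs differed most in the 3′UTR: among 12316 protein-coding genes the 3′UTR of Frs2 was longer than that of 94.7% and the 3′UTR of BC024139 was longer than that of 14.8%, against a median of 1024 bases. Their coding sequences, of 2133, 2319, 1527 and 1644 bases in Ddn, BC024139, Frs2 and Mllt1, were all above the median of 1434 bases. The GC content of the mRNA was 59.9% in Ddn, 58.4% in BC024139 and 59.5% in Mllt1, at percentiles of 94.3, 89.5 and 93.2 of these genes, but 45.1% in Frs2, against a median of 50.5%. Ddn overlaps the antisense gene B130046B21Rik over 2467 bases, and the counting used no strand option. B130046B21Rik had between 0.521% and 7.47% of the counts of Ddn. BC024139 overlaps Eppk1 on the same strand over 679 bases, and reads in both genes were not counted. Eppk1 held at most 12.8% of the count of BC024139 in WT libraries. Its highest value, 85.2%, was in KO soma KCl replicate 1, where BC024139 had a count of 128.

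DART-seq listed 4 sites in Ddn and 3 in Mllt1, whereas BC024139 and Frs2 were not among the 5643 RNAs listed. The 27 reference bases around each site are printed because the letters at the site define it: the edited C is the last of the 3 capitals, which mark AAC or GAC, and the adenosine before it is the m6A candidate. The calls were limited by the authors to this consensus, so its presence at 7 of 7 sites is not a finding. The sequences are from the RefSeq GRCm38 genome, read 5′ to 3′ on the minus strand.
Ddn, coding sequence, chr15:98806731-98806757: ggcgccgctggGACcggccgccaccct
Ddn, coding sequence, chr15:98805292-98805318: gacaccaggaaAACgccacagggaaat
Ddn, 3′UTR, chr15:98805135-98805161: cccacacttgaAACagaggagagagga
Ddn, 3′UTR, chr15:98804604-98804630: cttcagatttaAACggacaaagggctt
Mllt1, coding sequence, chr17:56894521-56894547: acaccaccttcGACtttgaccttttct
Mllt1, 3′UTR, chr17:56894264-56894290: gggtgacatagGACacacgtggcctgc
Mllt1, 3′UTR, chr17:56893649-56893675: gagaggctttgGACctgtgccctgcaa

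In both mRNAs the listed sites lay in the last exon, exon 2 of 2 in Ddn and exon 12 of 12 in Mllt1. The authors' average C2U in WT, the percentage of reads with a C-to-U change at the site, was 0.826%, 3.11%, 2.49% and 9.98% in Ddn, in the order printed from 5′ to 3′. The highest value of Ddn was 660 bases past the end of the stop codon, and 2 further Ddn sites lay 28 bases before and 129 bases past it. In Mllt1 the averages were 3.07%, 3.12% and 1.22%, at 72 bases before and 185 and 800 bases past the end of the stop codon. Over 18231 listed sites the median was 3.54%, so that 1 of the 7 sites lay above it. The editing score, which by the study's description sums the average C2U fractions of an RNA, was 0.161 in WT and 0.0774 in KO for Ddn, and 0.0777 in WT and 0.0294 in KO for Mllt1. The site values of each RNA do not add up exactly to its WT score. That they are WT averages was taken from the study's methods, as the deposited site values carry no label. The ratio of WT to KO was 2.08 for Ddn and 2.65 for Mllt1, against a median of 3.09 over 5201 RNAs with a ratio. The authors kept only sites whose C2U was higher in WT than in KO. A higher score in WT was thus fixed by that choice for every listed RNA and is not a finding. The score was 0.133 in soma and 0.177 in neurites for Ddn, and 0.0664 and 0.0862 for Mllt1. The ratio of neurites to soma was 1.33 for Ddn and 1.30 for Mllt1, close to the median of 1.31 over the same 5201 RNAs. These are averages over libraries without an error, and by the paper's description they pool Ctrl and KCl-treated samples. Their read depth is not in the tables used here, and they were not tested. Frs2 and BC024139 have 167 and 75 AAC or GAC triplets in their mRNAs, at 26.0 and 28.6 per kb, against a median of 27.0 per kb. The authors' calls also needed a minimum of reads and of mutations at a site. Why both mRNAs are absent from the list was not tested.

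**Figure D1:**
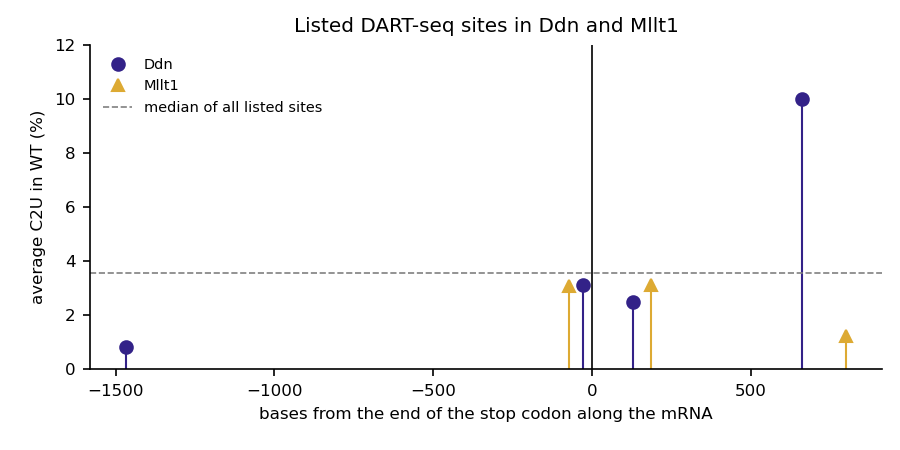
Average C2U in WT libraries (%) at the listed DART-seq sites of Ddn (circles) and Mllt1 (triangles), by distance in bases from the end of the stop codon; the vertical line marks the stop codon and the dashed line the median of all listed sites (3.54%). The Ddn site 660 bases past the stop codon reaches 9.98% and the other 6 sites lie under the median.

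In untreated WT neurons the 4 mRNAs were 3.19 to 7.03 times as abundant in neurites as in soma, which is the property by which they were picked and is given without a test. Levels are TMM-scaled CPM, a library's counts of the gene over its total, in the order replicate 1 and 2. Ddn had 39.7 and 41.4 CPM in soma and 141 and 173 CPM in neurites. BC024139 had 9.16 and 11.9 CPM in soma and 63.0 and 85.8 CPM in neurites. Every neurite library was above every soma library, for these 2 as for the other 2 mRNAs. Frs2 had 39.9 and 39.9 CPM in soma and 112 and 142 CPM in neurites. Mllt1 had 23.5 and 24.1 CPM in soma and 65.9 and 86.1 CPM in neurites. The log2 ratio of neurites to soma within an insert was 1.95 ± 0.16 (SD, n = 2) for Ddn, 2.81 ± 0.048 for BC024139, 1.66 ± 0.24 for Frs2 and 1.66 ± 0.25 for Mllt1. By this ratio BC024139 was first among 14867 genes with a mean WT count of at least 100, and Ddn, Frs2 and Mllt1 had the ranks 73, 186 and 189. In WT with KCl the ratios were 1.87 ± 0.23, 2.44 ± 0.32, 1.25 ± 0.0091 and 1.19 ± 0.28, in the same order, with ranks of 28, 6, 293 and 349. As background for these contrasts, 9.01% of 23200 genes in Ctrl and 6.87% of 23028 genes in KCl were called higher in neurites (at least 1.5-fold, adjusted p of at most 0.05 by edgeR). The 4 mRNAs were chosen on these contrasts, so no call is given for them. Axons and dendrites left on the upper side were scraped off with the cell bodies, and in such bulk samples fewer cells of a type and less RNA per cell cannot be told apart.

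**Figure D2:**
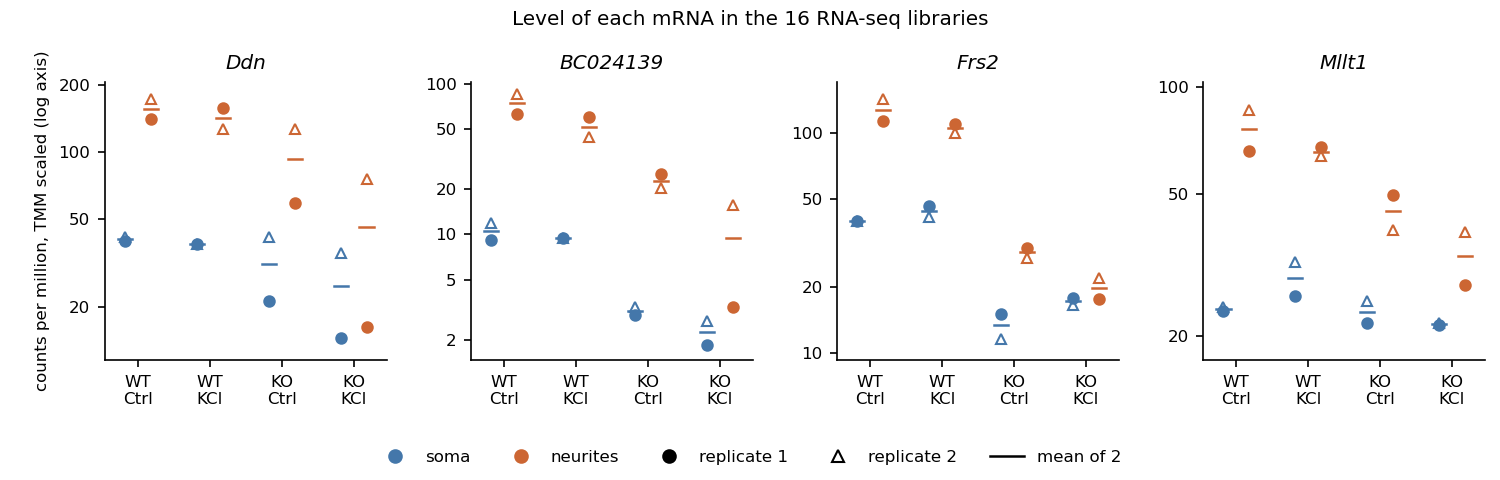
Level of each mRNA in the 16 RNA-seq libraries (TMM-scaled CPM, log axis, separate scale per panel) by genotype and treatment, with soma in blue, neurites in orange, replicate 1 as filled circles, replicate 2 as open triangles and a bar at the mean of 2. Neurites lie above soma in every WT insert, and in KO with KCl replicate 1 lies close to its soma library.

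Per exon length, Ddn was the most abundant of the 4 in WT Ctrl neurites at 41.5 ± 6.00 FPKM (SD, n = 2), followed by Mllt1 at 19.4 ± 3.64, BC024139 at 16.3 ± 3.54 and Frs2 at 14.5 ± 2.37. This length covers all counted exons, 4567 bases in BC024139, 8747 in Frs2 and 3918 in Mllt1. Their main transcripts have 2623, 6420 and 3636 bases, so the order of Mllt1, BC024139 and Frs2 in neurites depends on the length used. The libraries of neighbours in this order overlapped for Mllt1 with BC024139 and for BC024139 with Frs2, but not for Ddn with Mllt1. In WT Ctrl soma the order was Ddn at 10.7 ± 0.332 FPKM, Mllt1 at 6.07 ± 0.103, Frs2 at 4.56 ± 0.0034 and BC024139 at 2.31 ± 0.428, with no overlap between neighbours. BC024139, which had the highest ratio, thus had the lowest level in soma, with a rank of 10543 among the 14867 genes by FPKM there and of 3769 in neurites.

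In Mettl3 KO neurons, whose libraries took no part in the choice of the 4 mRNAs, the untreated neurite libraries were also above the soma libraries for each of them, but none of the 4 passed the test. The knockout check came first: Mettl3 itself had 13.5 to 16.7 CPM in WT soma and 6.18 to 11.0 CPM in KO soma, and 9.04 to 12.4 CPM in WT neurites against 3.91 to 8.23 CPM in KO neurites, so that KO libraries were lower but not at 0. These counts cover the whole gene, whereas the paper reports loss of a floxed exon and almost no METTL3 protein. They therefore do not measure how complete the knockout was. Ddn had 21.2 and 41.4 CPM in KO Ctrl soma and 59.0 and 127 CPM in KO Ctrl neurites. BC024139 had 2.91 and 3.30 CPM in soma and 25.0 and 20.4 CPM in neurites. Frs2 had 15.1 and 11.6 CPM in soma and 30.1 and 27.1 CPM in neurites, and Mllt1 had 21.7 and 25.0 CPM in soma and 49.8 and 39.6 CPM in neurites. The neurite and soma libraries overlapped for none of the 4, while edgeR called 0% of 22557 genes higher in this comparison. The share of all genes without such an overlap was not counted, here or in the comparisons below. By the log2 ratio in KO Ctrl, 8.28%, 1.18%, 11.8% and 14.1% of 14867 genes lay above Ddn, BC024139, Frs2 and Mllt1. The fitted log2 fold changes were 1.51 (SE 0.797, 95% interval −0.33 to 3.35) for Ddn, 2.81 (SE 0.734, 1.12 to 4.51) for BC024139, 1.06 (SE 0.369, 0.21 to 1.91) for Frs2 and 0.88 (SE 0.363, 0.046 to 1.72) for Mllt1. The unadjusted p was 0.095, 0.00496, 0.0211 and 0.0411, and the adjusted p of edgeR was 0.841 for each. At an unadjusted p of at most 0.05, 1239 genes passed, and DESeq2 called 12 genes higher and 5 lower, with none of the 4 mRNAs among them. Without the filter on low counts BC024139 was called (log2 fold change 2.82, adjusted p = 0.0486 by edgeR). The spread between replicates limits this comparison: the SD of log2 levels between replicates was 0.715 and 1.07 in the KO Ctrl neurite and soma groups, against 0.660 and 0.318 in WT. Leaving out 1 library moved Ddn between 0.85 and 2.13, with the lowest value without neurite replicate 2 and the highest without soma replicate 2.

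In KO neurons with KCl the mean ratio of neurites to soma was lower than in KO Ctrl for each mRNA. No member passed the test of this change, which is given below. By rank of the log2 ratio among 14867 genes, Ddn (771), BC024139 (5) and Mllt1 (842) stood higher than in KO Ctrl (1232, 176 and 2099). Frs2 stood lower, at 4617 against 1748. The ratios also differed between the inserts. Within insert 1 the neurite level was 1.13 times the soma level for Ddn, 1.80 times for BC024139, 0.992 times for Frs2 and 1.30 times for Mllt1. Within insert 2 it was 2.14, 5.80, 1.33 and 1.80 times, in the same order. Ddn had 14.4 and 35.1 CPM in soma and 16.3 and 75.2 CPM in neurites, so that the groups overlapped. Frs2 overlapped as well, with 17.8 and 16.5 CPM in soma and 17.6 and 21.9 CPM in neurites. BC024139, with 1.84 and 2.69 CPM in soma and 3.30 and 15.6 CPM in neurites, and Mllt1, with 21.4 and 21.7 CPM in soma and 27.9 and 39.1 CPM in neurites, did not overlap. The log2 fold changes were 0.82 (SE 0.807) for Ddn, 1.99 (SE 0.729) for BC024139, 0.13 (SE 0.364) for Frs2 and 0.56 (SE 0.367) for Mllt1, all with an adjusted p of 1.00 by edgeR, where 0% of 23152 genes were called higher, 132 passed an unadjusted p of at most 0.05 and DESeq2 called 0. Without KO KCl neurites replicate 2, the values of Ddn and Frs2 changed sign, to −0.71 and −0.039.

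**Figure D3:**
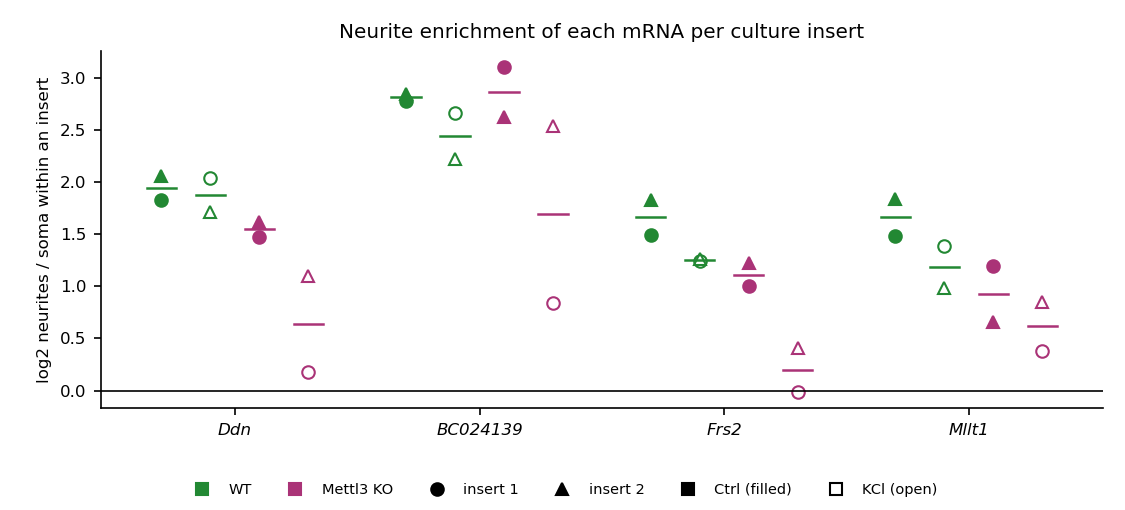
Log2 ratio of neurites to soma within each culture insert (circles insert 1, triangles insert 2, bars the mean of 2) for WT in green and Mettl3 KO in purple, filled for Ctrl and open for KCl; the line at 0 marks equal levels. Values in WT lie between 0.99 and 2.85, and in KCl-treated KO insert 1 Frs2 is at −0.012 and Ddn at 0.18.

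Both libraries of KCl-treated KO insert 1 stood apart from the other 6 KO libraries. The summed level of 8 markers of the oligodendrocyte lineage was 3746 CPM in its soma and 7576 CPM in its neurites, against 56.0 to 173 CPM in the other KO libraries and 38.9 to 107 CPM in WT. The 7 astrocyte markers summed to 9479 and 18684 CPM, against 1814 to 6454 CPM in the other KO libraries and 1096 to 2983 CPM in WT. The 6 microglia markers summed to 391 and 287 CPM, against 15.1 to 50.5 CPM in the other KO libraries and 11.2 to 35.5 CPM in WT, and the 7 fibroblast and vessel markers to 107 and 711 CPM, against 11.6 to 41.1 and 9.88 to 76.9 CPM. The 8 neuron markers were lower, at 1176 and 714 CPM, against 2615 to 3648 CPM in the other KO libraries and 3279 to 4785 CPM in WT. No marker was at 0 in any group of libraries. Their part in the results was not tested. Without both libraries of this insert the KO KCl log2 fold changes, then from 1 insert with the spread taken from the KO Ctrl groups, were 1.11 for Ddn, 2.55 for BC024139, 0.42 for Frs2 and 0.86 for Mllt1, still with an adjusted p of 1.00.

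The difference of the 2 enrichments holds the contrast used by the rule on its WT side, so it is given without a test. The mean log2 ratio in KO Ctrl minus that in WT Ctrl was −0.40 for Ddn, 0.049 for BC024139, −0.55 for Frs2 and −0.73 for Mllt1. For KCl it was −1.24 for Ddn, −0.75 for BC024139, −1.05 for Frs2 and −0.57 for Mllt1. A lower ratio in KO than in WT is also what a choice on high WT ratios would give by arithmetic. Within WT the ratio with KCl minus that of Ctrl was −0.071, −0.37, −0.41 and −0.48 for Ddn, BC024139, Frs2 and Mllt1. The same difference in KO, which the rule did not use, was tested with 1 term per insert. It was −0.94 (SE 0.463) for Ddn, −1.20 (SE 0.680) for BC024139, −0.94 (SE 0.434) for Frs2 and −0.34 (SE 0.452) for Mllt1. No member passed: the unadjusted p was 0.0811, 0.120, 0.0654 and 0.471, each with an adjusted p of 1.00 by edgeR. In this comparison 0% of 23099 genes were called, 515 passed an unadjusted p of at most 0.05 and DESeq2 called 1 higher and 1 lower. Without the insert terms the 4 values were −0.69, −0.83, −0.93 and −0.32, and without both the insert terms and KCl-treated KO insert 1 they were −0.40, −0.27, −0.64 and −0.024.

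The level of Frs2 was lower in KO than in WT in each fraction and treatment, and it was the only member called in these 4 comparisons. All 8 KO libraries, at 11.6 to 30.1 CPM, were below all 8 WT libraries, at 39.9 to 142 CPM, so that Frs2 in KO neurites was below its level in WT soma. In Ctrl soma the log2 fold change was −1.58 (SE 0.227, 95% interval −2.08 to −1.09, adjusted p = 0.0161 by edgeR), and 0.122% of 23750 genes were called lower. In Ctrl neurites it was −2.15 (SE 0.225, −2.64 to −1.66, adjusted p = 0.00285), with 0.124% of 21814 genes called lower. In KCl soma it was −1.36 (SE 0.226, −1.85 to −0.87, adjusted p = 0.0367), with 0.166% of 24038 genes called lower. In KCl neurites it was −2.40 (SE 0.231, −2.91 to −1.90, adjusted p = 0.00157), with 0.338% of 22488 genes called lower. These are 2.99-, 4.43-, 2.56- and 5.29-fold lower levels. Cell type markers differed between the genotypes as well: in Ctrl neurites the summed neuron markers were 2615 to 3159 CPM in KO and 4278 to 4785 CPM in WT, and in Ctrl soma 2847 to 3600 and 3279 to 3418 CPM. The summed astrocyte markers were 2780 to 6454 CPM in KO and 1958 to 2983 CPM in WT in Ctrl neurites, and 1814 to 2402 and 1096 to 1116 CPM in Ctrl soma. Their part in the lower levels of Frs2 and of BC024139 was not tested. DESeq2 called Frs2 lower in each of the 4 as well, with an adjusted p of 8.9e-09, 4.5e-18, 1.6e-06 and 1.8e-23 in the same order. By DESeq2, 225 of 23750, 198 of 21814, 469 of 24038 and 1020 of 22488 genes were called lower in these comparisons.

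The call of Frs2 depended on the libraries in the fit, whereas its direction was the same in each of them. Without 1 library of the comparison the log2 fold change stayed between −1.73 and −1.44 in Ctrl soma, −2.31 and −1.97 in Ctrl neurites, −1.45 and −1.28 in KCl soma and −2.59 and −2.23 in KCl neurites. The KCl neurite call remained without each library in turn (adjusted p 0.00269 to 0.0242). The Ctrl soma call was lost without WT replicate 1 (adjusted p = 0.189), WT replicate 2 (0.227) or KO replicate 2 (0.123). The Ctrl neurite call was lost without KO replicate 1 (0.0642) or KO replicate 2 (0.0839), and the KCl soma call without any of its 4 libraries (0.0712 to 0.284). The KCl soma call was also lost with the replicate number as a block (adjusted p = 0.0525) and without the filter on low counts (0.0501). In fits of the 4 libraries of each comparison alone the Ctrl neurite call remained (adjusted p = 0.0141), and the others had an adjusted p of 0.346 in Ctrl soma, 0.319 in KCl soma and 0.486 in KCl neurites. Without KCl-treated KO insert 1 the adjusted p was 0.00501 in Ctrl soma, 0.00148 in Ctrl neurites, 0.0649 in KCl soma and 0.00970 in KCl neurites. The WT libraries of these comparisons also served to pick the members: a choice on high WT neurite levels would lower the KO to WT ratio in neurites and a choice on low WT soma levels would raise it in soma. The nearest gene on the same strand, Cct2, which encodes a chaperonin subunit, starts 5613 bases past the 3′ end of Frs2 and had 131 to 246 CPM over the 16 libraries.

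BC024139 was lower in KO by a similar size but with a larger error. Its KO soma libraries had 1.84 to 3.30 CPM and its WT soma libraries 9.16 to 11.9 CPM, and its KO neurite libraries had 3.30 to 25.0 CPM against 43.9 to 85.8 CPM in WT, so that KO and WT did not overlap in either fraction. The log2 fold changes were −1.76 (SE 0.528, adjusted p = 0.311) in Ctrl soma, −1.71 (SE 0.520, 0.347) in Ctrl neurites, −2.07 (SE 0.543, 0.179) in KCl soma and −2.46 (SE 0.549, 0.0748) in KCl neurites, none of them called by edgeR. Without KCl-treated KO insert 1, it was called by edgeR in Ctrl soma (−1.80, adjusted p = 0.0112) and Ctrl neurites (−1.68, 0.0162). In these fits 296 of 23750 and 193 of 21814 genes were called lower. The KCl values, then from 1 KO insert, were −1.81 and −1.75 and were not called. DESeq2 called it in KCl soma and KCl neurites, where 469 of 24038 and 1020 of 22488 genes were called lower. In Ctrl its level was lower by a similar size in both fractions, and its ratio of neurites to soma was 7.38 times in KO and 7.03 times in WT (means of 2 inserts).

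Ddn and Mllt1 were not called in any of the 4 comparisons of KO with WT by edgeR. Mllt1 had 21.7 and 25.0 CPM in KO Ctrl soma, around the 23.5 and 24.1 CPM of WT, with a log2 fold change of −0.028 (SE 0.240, 95% interval −0.55 to 0.50). In Ctrl neurites its KO libraries were lower without overlap, at a log2 fold change of −0.76 (SE 0.238, −1.28 to −0.24, adjusted p = 0.357), and in KCl neurites the value was −0.98 (SE 0.244, −1.51 to −0.44, adjusted p = 0.0948). In KCl soma Mllt1 was at −0.43 (SE 0.243). DESeq2 called Mllt1 lower in KCl neurites, as it did 1020 of 22488 genes. Ddn was at −0.37 (SE 0.611) in Ctrl soma, −0.75 (SE 0.614) in Ctrl neurites, −0.64 (SE 0.622) in KCl soma and −1.64 (SE 0.640) in KCl neurites, with adjusted p between 0.158 and 0.925. The low KCl value of Ddn came with replicate 1: its KO KCl neurite libraries had 16.3 and 75.2 CPM, and without KCl-treated KO insert 1 the log2 fold change was −0.94. Without KO KCl neurites replicate 2, in contrast, the KCl neurite values were −3.15 for Ddn and −4.00 for BC024139. The only KO KCl neurite library left in that fit was replicate 1. Its oligodendrocyte lineage markers summed to 7576 CPM and its neuron markers to 714 CPM.

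**Figure D4:**
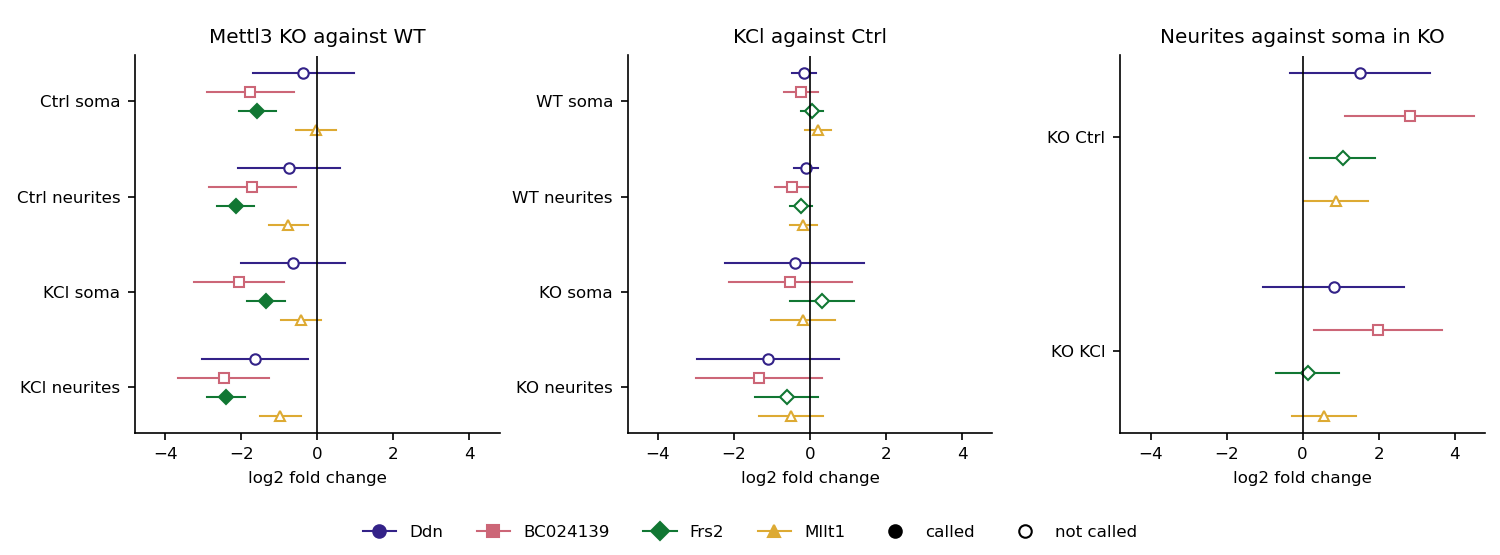
Fitted log2 fold changes of the 4 mRNAs with 95% intervals for Mettl3 KO against WT, KCl against Ctrl, and neurites against soma in KO; filled symbols passed the fold and adjusted p thresholds. Frs2 is the only filled symbol, in all 4 comparisons of KO with WT, from −1.36 to −2.40.

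KCl for 2 h did not change the level of any of the 4 mRNAs past the threshold (2-fold and adjusted p of at most 0.05). In WT soma, Ddn had 39.7 and 41.4 CPM without and 38.5 and 38.7 CPM with KCl, BC024139 had 9.16 and 11.9 and then 9.42 and 9.44 CPM, Frs2 had 39.9 and 39.9 and then 46.3 and 41.4 CPM, and Mllt1 had 23.5 and 24.1 and then 25.8 and 32.2 CPM. The log2 fold changes were −0.15 (SE 0.143), −0.23 (SE 0.201), 0.060 (SE 0.132) and 0.21 (SE 0.154), with adjusted p between 0.441 and 0.828 by edgeR. The 95% intervals lay between −0.68 and 0.55 and so excluded a 2-fold change. In the same test 6.7% of 24060 genes were called. In WT neurites with KCl, Ddn had 159 and 126 CPM, BC024139 59.8 and 43.9 CPM, Frs2 110 and 99.1 CPM and Mllt1 67.6 and 63.7 CPM. The log2 fold changes were −0.10 (SE 0.141), −0.48 (SE 0.194, 95% interval −0.91 to −0.049), −0.25 (SE 0.130) and −0.17 (SE 0.155), with adjusted p between 0.170 and 0.725, and 5.03% of 22059 genes were called. BC024139 was thus the member with the largest fall in neurites, with no overlap between the groups, but it did not pass. By replicate number its log2 difference was −0.075 in replicate 1 and −0.97 in replicate 2, so that the fall was mainly in replicate 2.

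In KO, KCl gave wider intervals. The log2 fold changes in KO soma were −0.41 (SE 0.791) for Ddn, −0.52 (SE 0.700) for BC024139, 0.31 (SE 0.365) for Frs2 and −0.17 (SE 0.364) for Mllt1, and in KO neurites −1.10 (SE 0.811), −1.34 (SE 0.711), −0.62 (SE 0.362) and −0.50 (SE 0.360). Adjusted p was 0.737 or more by edgeR, and 0% of 23679 genes in soma and 0% of 22199 genes in neurites were called. At an unadjusted p of at most 0.05, 1562 and 1390 genes passed, and DESeq2 called 219 higher and 51 lower in soma and 224 higher and 29 lower in neurites, with none of the 4 mRNAs among them. Without KCl-treated KO insert 1 the neurite values were −0.29, −0.52, −0.36 and −0.17, and in soma Ddn moved to 0.12.

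The genes that work with the proteins of these mRNAs were counted from lists chosen by function. The WT contrast of neurites with soma is the one the rule used, so the list values there are descriptions, to be read beside the 9.01% and 6.87% of all genes called higher in Ctrl and KCl. Of 5 binding partners of dendrin, 2 were called higher in neurites of WT Ctrl, namely Wwc1, which encodes the postsynaptic scaffold KIBRA, at 0.97 (SE 0.159, adjusted p = 0.00294 by edgeR), and Nphs1, which encodes nephrin, at 0.86 (SE 0.197, adjusted p = 0.0134). The median of the 5 was 0.063, against −0.098 for all genes. None of the 5 was called between KO and WT or between KCl and Ctrl. Wwc1 in KO Ctrl was at 0.63 (SE 0.386, adjusted p = 0.847) in neurites against soma. Of the other partners named by level, Actn4 (an actin cross-linker) and Magi2 (a synaptic scaffold) were at −0.078 (SE 0.357) and −0.19 (SE 0.435) there.

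Of 30 genes of the FRS2 pathway, from receptors to MAP kinases, 1 was called higher in WT Ctrl neurites over soma and none lower. This was Frs3, the paralog of Frs2, at 1.17 (SE 0.230, adjusted p = 0.00702 by edgeR). In WT KCl 4 were called higher, namely Frs3 at 1.00, Mapk3 at 0.67, Ptpn11, which encodes SHP2, at 0.61 and Hras at 0.59. The medians of the list were 0.013 and −0.0024, against −0.098 and −0.033 for all genes tested. None of the 30 was called between KO and WT in any of the 4 comparisons, in which the medians lay between −0.25 and 0.095, against 0.0071 to 0.090 for all genes tested, and Frs2 between −2.40 and −1.36. Frs3 was at −0.32 (SE 0.666) in Ctrl soma, −1.34 (SE 0.677) in Ctrl neurites, −1.82 (SE 0.699) in KCl soma and −2.81 (SE 0.729, adjusted p = 0.101) in KCl neurites. Among the most abundant genes of the list by FPKM were Map2k1 and Grb2, which encode the kinase MEK1 and the adaptor GRB2. Their log2 fold changes in KO against WT Ctrl neurites were −0.38 (SE 0.556) and 0.14 (SE 0.313). With KCl in WT soma, where 6.7% of all genes were called in either direction, 3 of the 30 were called higher, 2.03 for Spry2, 1.08 for Spry4, which encode feedback inhibitors of receptor tyrosine kinase signalling, and 1.44 for the kinase gene Braf. Spry2 (1.55) and Braf (1.38) were called in WT neurites too, against 5.03% of all genes, whereas Frs2 was at 0.060 and −0.25.

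Of 22 genes of the elongation and DOT1L complexes that hold ENL, 1 was called higher and 1 lower in WT Ctrl neurites over soma, against 2091 higher and 1054 lower of all 23200 genes. Mllt6, which encodes a partner of DOT1L, was at 1.64 (SE 0.194, adjusted p = 0.000558 by edgeR), close to the 1.58 of Mllt1 in the same fit, and Ccnt2, a cyclin of the elongation factor P-TEFb, at −0.65 (SE 0.119, adjusted p = 0.00512). The median of the list was −0.36, against −0.098 for all genes tested. In WT KCl Mllt6 (1.78) and, lower, Paf1 (−0.61), which encodes a subunit of an elongation complex, were called. Mllt3, the paralog of Mllt1 that encodes AF9, was at −0.19 (SE 0.385) in KO Ctrl neurites against soma, where Mllt1 was at 0.88. None of the 22 was called between KO and WT. Among the most abundant of the list, Paf1 rose by less than the threshold with KCl in WT soma (0.91, SE 0.115, adjusted p = 0.000512), and Ctr9 and Yeats4 were at 0.28 (SE 0.113) and −0.10 (SE 0.141). With KCl, Aff1 (1.54) and Ccnt1 (1.04) were called higher in WT soma and Aff1 (1.60) and Ell2 (1.37) in WT neurites, where Mllt1 was at −0.17. The genes named for passing a threshold in these 3 lists were chosen after their values were seen.

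Over the 16 libraries, the patterns of the 4 mRNAs were most alike for BC024139 and Mllt1 (Pearson r = 0.931 of log2 CPM) and for Ddn and BC024139 (0.929), and least alike for Ddn and Frs2 (0.766). Within the 8 KO libraries the same values were 0.972, 0.858 and 0.574. The points share fraction, genotype and, in pairs, the insert, so these values are descriptions. Among 15170 genes, those most like Ddn were Clmn (0.974), Mllt6 (0.973) and B230217C12Rik (0.970). Most like BC024139 were Tspan17 (0.985), Neurl1b (0.984) and Nsmf (0.977). Most like Frs2 were Dok6 (0.977), Oip5os1 (0.974) and Sox11 (0.972), and most like Mllt1 were Pcif1 (0.966), Ctnnd2 (0.959) and Tbc1d16 (0.955). In WT Ctrl the log2 ratio of neurites to soma of these 12 genes lay between 0.74 for Ctnnd2 and 1.93 for Dok6. Among the genes beside the members on the chromosome, none had a ratio as high as that of its neighbour in WT Ctrl: Prkag1, next to Ddn, had 21.7 CPM in soma and 20.1 CPM in neurites, Cct2, next to Frs2, 161 and 195 CPM, and 1700061G19Rik, next to Mllt1, 1.00 and 1.54 CPM. Eppk1 had 0.353 and 0.329 CPM. Gm41349, Lrrc10 and Acer1 were too low for a ratio, with at most 0.571 CPM in any library.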

How the data were processed

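RNA-seq reads were trimmed with Flexbar, aligned to mm10 with STAR 2.7.7a and counted per Ensembl 97 gene with featureCounts 2.0.1 by the authors, and the deposited values are raw counts, with multimapping reads counted, reads in more than 1 gene dropped and no strand option. The deposited exon length in bases served for FPKM. DART-seq sites were called with Bullseye by the authors, who averaged the C2U fraction per site over WT libraries and summed these fractions to a score per RNA and group. The deposited enrichment tables, which also hold the DESeq2 mean signal, fold changes and p-values of the authors, served only to pair gene IDs with symbols (23566 of 55573 genes), and the fold and p columns of the DART-seq table were not used.

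The members and gene lists were chosen with earlier results of these data known. Mitochondrially encoded genes (37) and genes with a mean count under 10 in the compared libraries were left out. All 4 mRNAs had a mean count of at least 10 in each of the 8 groups. TMM-scaled counts were tested with the edgeR 4.0.16 quasi-likelihood F-test in R 4.3.3, two-sided, with Benjamini-Hochberg adjustment over all genes tested and 95% intervals. KO enrichment and KCl responses were fitted within a genotype (8 libraries), because the common biological coefficient of variation was 0.505 in KO and 0.151 in WT, and KO against WT on all 16. Calls needed 1.5-fold, or 2-fold for KCl, and an adjusted p of at most 0.05. DESeq2 1.42.0, other scalings, no filter, other sets of libraries, a replicate block and omission of each library were the alternatives. The fit without KCl-treated KO insert 1 was added after seeing the data. The tests were checked on simulated data. Gene models are GENCODE M21 (GRCm38), with 55394 of 55573 genes in both, and sequences were read with samtools 1.23.1 from the RefSeq GRCm38 genome. Python 3.11.15, pandas 2.3.3 and matplotlib 3.10.9 were used for tables and plots.

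Named genes were the 4 mRNAs, Mettl3, paralogs of members, the 3 genes of each list with the highest FPKM and the 3 genes with the highest Pearson r to each member, and 1 gene that this rule names is not reported here. According to the study's methods, soma and neurites were paired by insert, Ctrl and KCl cultures shared a litter and duplicates came from distinct litters. The replicate numbers were taken to mark these, which the labels do not state. Replicate differences of same-numbered soma and neurite libraries had r of −0.071, 0.079, 0.022 and 0.821 in WT Ctrl, WT KCl, KO Ctrl and KO KCl, and those of Ctrl and KCl libraries r between −0.035 and 0.146. The block was an alternative, except for the KCl change of enrichment in KO. The p-values cover the spread between 2 cultures a group.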

Additional observations from a re-analysis of the deposited data

Results flagged for a closer look

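In soma, the log2 difference of Mllt1 between KCl and Ctrl libraries of the same number was above 0 in both WT replicates and below 0 in both KO replicates, 1 of them close to 0. The mean was 0.28 in WT (0.14 and 0.42 for replicates 1 and 2) and −0.11 in KO (−0.021 and −0.20), and neither passed in its own comparison (adjusted p = 0.441 and 0.893 by edgeR). The difference itself, KO minus WT, was −0.40 on the log2 scale (SE 0.344, 95% interval −1.15 to 0.35) with an adjusted p of 0.994 over 24058 genes by edgeR on all 16 libraries, a test added after the values were seen, so it did not pass. The same test gave adjusted p of 0.876 or more for each of the 4 mRNAs in both fractions.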

How the results depend on the processing

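Each comparison of KO with WT had 1 of the 4 mRNAs called, and the comparisons of fractions within KO and of KCl with Ctrl had 0. With DESeq2 the count was 2 in KCl soma and 3 in KCl neurites. Of all genes DESeq2 called 469 of 24038 and 1020 of 22488 lower there, against 40 and 76 by edgeR. Without the filter on low counts it was 0 in KCl soma, 2 in KCl neurites and 1 for neurites against soma in KO Ctrl. With the 4 libraries of a comparison alone it was 0 in Ctrl soma, KCl soma and KCl neurites and 2 in Ctrl neurites. Without KCl-treated KO insert 1 it was 2 in Ctrl soma and Ctrl neurites, with 296 of 23750 and 193 of 21814 genes called lower. The KCl comparisons of that fit had only 1 KO library each. Leaving out 1 library gave 0 to 1 in Ctrl soma and Ctrl neurites, 0 in KCl soma and 1 to 4 in KCl neurites, with 4 reached without KO replicate 2. That last fit left only replicate 1 in the KO KCl neurite group, a library of the insert with high glial markers. Beyond DESeq2 and the fit without that insert, the share of all genes called is not given. Over 40 alternatives of KO against WT, Frs2 was called in 25, BC024139 in 7, Mllt1 in 2 and Ddn in 1. No KCl against Ctrl alternative gave a call, in 42 for each mRNA. RLE scaling changed no call. Of the 7 DART-seq sites, 1 had a C2U of at least 5%.

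Log2 fold changes that changed sign without 1 library were small or had wide errors. For neurites against soma in KO KCl they ranged from −0.71 to 1.63 for Ddn and −0.039 to 0.37 for Frs2. For KCl in WT they ranged from −0.34 to 0.040 for BC024139 in soma, and in neurites from −0.26 to 0.071 for Ddn and −0.35 to 0.028 for Mllt1. For KCl in KO soma Ddn ranged from −1.20 to 0.22, and was 0.12 without KCl-treated KO insert 1. For KO against WT in Ctrl soma the range was −0.96 to 0.081 for Ddn and −0.16 to 0.12 for Mllt1. Scaling by library totals in place of TMM lowered the mean log2 ratio in WT Ctrl to 1.62 for Ddn, 2.49 for BC024139, 1.34 for Frs2 and 1.34 for Mllt1, while the median of 15170 genes went from −0.11 to −0.31.

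With the replicate block, which between genotypes joins different litters, the count in KCl soma of KO against WT was 0 (Frs2 −1.36, adjusted p = 0.0525 by edgeR), and no other call changed. With 2 libraries a group, a missing call between KO and WT or between fractions of KO does not show that there was no difference. Some members were not called although their 95% interval left out 0, such as BC024139 in KO Ctrl neurites against soma (1.12 to 4.51).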
